A study of Mus musculus with 13 samples.

Results

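The genes described here were 10 transcription factor genes of lymphoid progenitors, Bcl11a, Ikzf1, Mef2c, Satb1, Spi1, Tcf3, Id2, Runx1, Foxo1, and Gfi1, chosen by gene name from the 24972 genes of the deposited tables. All 10 were found, and they were followed in all 13 libraries. Common lymphoid progenitors (CLPs) were sorted from the bone marrow (BM) of adult C57BL/6 mice aged 6 to 12 weeks, 1 library per mouse, as live lineage-negative cells with low Sca1 and low cKit that carried CD127 and CD135. The mice were 5 WT, 5 Notch1+/-, and 3 Notch1+/dTAD animals. Notch1+/- mice keep 1 functional allele of Notch1, and Notch1+/dTAD mice carry 1 allele without the transactivation domain (TAD), a protein that still binds its DNA-bound partner but recruits coactivators poorly. As the genotypes are given, neither mutation was limited to CLPs, and no group received a treatment. The comparisons asked how loss of an allele, or presence of the interfering allele, went along with RNA levels in CLPs.

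Values are TPM, a transcript abundance, which divides each gene's signal by its length and sums to the same total in every library. Read counts were not used here, so the depth behind a value is unknown and a TPM of 0 can be no more than a gene listed at 0. Of the 7 CLP markers examined, Dntt, Ly6d, and Flt3 were above 0 in 13 of 13 libraries and Il7r, which encodes CD127, in 12, whereas Rag1 was above 0 in 11, Kit in 8, and Ly6a, a gene of Sca1, in 5. The T and NK cell genes Cd3e, Cd3g, Cd8a, Klrb1c, and Ncr1 and the B cell gene Ms4a1 were listed at 0 in every library. Other genes of these lists were found, with Lck above 0 in 10 libraries (up to 560.2 TPM), Nkg7 in 5 (up to 1122 TPM), Cd4 in 2 (up to 187 TPM), Vpreb1 in 12 (up to 1029 TPM), Ebf1 in 12 (up to 56.2 TPM), and Cd79a in 6 (up to 419.6 TPM). Summed over its marker list, myeloid RNA ranged from 366 to 2461 TPM, dendritic RNA from 660 to 3162 TPM, B lineage RNA from 4.95 to 1839 TPM, T and NK RNA from 0 to 1417 TPM, and erythroid RNA from 0 to 17.6 TPM. The dendritic list holds Irf8, a factor also of B cell development, at 300.5 to 1389 TPM. Of its other genes, Siglech and Bst2 were above 0 in 13 libraries, Ly6c2 in 4, and Itgax in 3. In bulk RNA of a sorted population, a change in the number of cells that express a gene and a change in RNA per cell cannot be told apart. Genes at 1 TPM or more numbered 3179 to 3855 in WT, 2818 to 4736 in Notch1+/-, and 3984 to 4663 in Notch1+/dTAD libraries.

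CLPs arise from multipotent progenitors and give rise to B, T, and NK cells. Ikaros (Ikzf1), PU.1 (Spi1), and Mef2c act early, when lymphoid genes such as Flt3 and Il7r become active, E2A (Tcf3) and Foxo1 then drive the B lineage program, and Id2 blocks E proteins and favors innate lymphoid fates. When Notch1 is activated its intracellular part enters the nucleus and joins the DNA-binding protein RBPJ, which recognizes the letters TGGGAA.

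RefSeq start windows on GRCm38.p6 were available for 9 of the 10 genes, as 18 windows, and the 250 bases before each start were searched on both strands. The RBPJ core TGGGAA was found in 2 of the 18 windows (11.1%), those of Bcl11a and Satb1, against 21.6% of 32851 windows of all genes. The PU.1 core GAGGAA was found in 6 windows (33.3% against 23.3%), which belonged to Mef2c, Runx1, and Satb1, the E-box CAGGTG in 3 (16.7% against 17.2%), which belonged to Gfi1, Runx1, and Satb1, and the RUNX core TGTGGT in 0 (against 14.0%). Windows of the same gene can overlap, so they are not independent. The Satb1 windows 51812135-51812434 and 51812005-51812304 do, and the same PU.1 core site is counted for both. None of these 4 motifs contains another, neighboring matches may share bases, and a match is a description of sequence only. The 2 stretches below are shown because Bcl11a had the highest level of the 10 genes and Mef2c the widest spread among Notch1+/- libraries of the genes found in every library. Each is the plus strand and ends 30 bases before the annotated start. The first lies at chr11:24080445-24080664, inside the interval that GENCODE gives Bcl11a, with the RBPJ core in capitals, and the second at chr13:83503784-83504003, just before the GENCODE start of Mef2c, with the PU.1 core in capitals.
Bcl11a: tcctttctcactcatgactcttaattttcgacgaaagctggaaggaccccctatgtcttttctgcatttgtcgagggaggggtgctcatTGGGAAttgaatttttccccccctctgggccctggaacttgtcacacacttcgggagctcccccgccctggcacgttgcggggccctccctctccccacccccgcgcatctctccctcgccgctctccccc
Mef2c: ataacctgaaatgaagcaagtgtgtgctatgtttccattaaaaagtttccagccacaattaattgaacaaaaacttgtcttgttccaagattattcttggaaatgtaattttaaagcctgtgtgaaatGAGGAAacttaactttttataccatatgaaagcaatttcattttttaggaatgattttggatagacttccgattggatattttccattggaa

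Bcl11a, Ikzf1, Mef2c, Satb1, and Spi1 were at 1 TPM or more in all 13 libraries. The other 5 were patchy. Tcf3 reached 1 TPM in 7 libraries, Runx1 in 5, Id2 in 4, Foxo1 in 1, and Gfi1 in 0. Between 6 and 9 of the 10 genes were above 0 in a given library. In the plot of levels by genotype, the first group forms bands well above the axis and the second group splits between 0 and higher values within the same genotype.

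**Figure D1:**
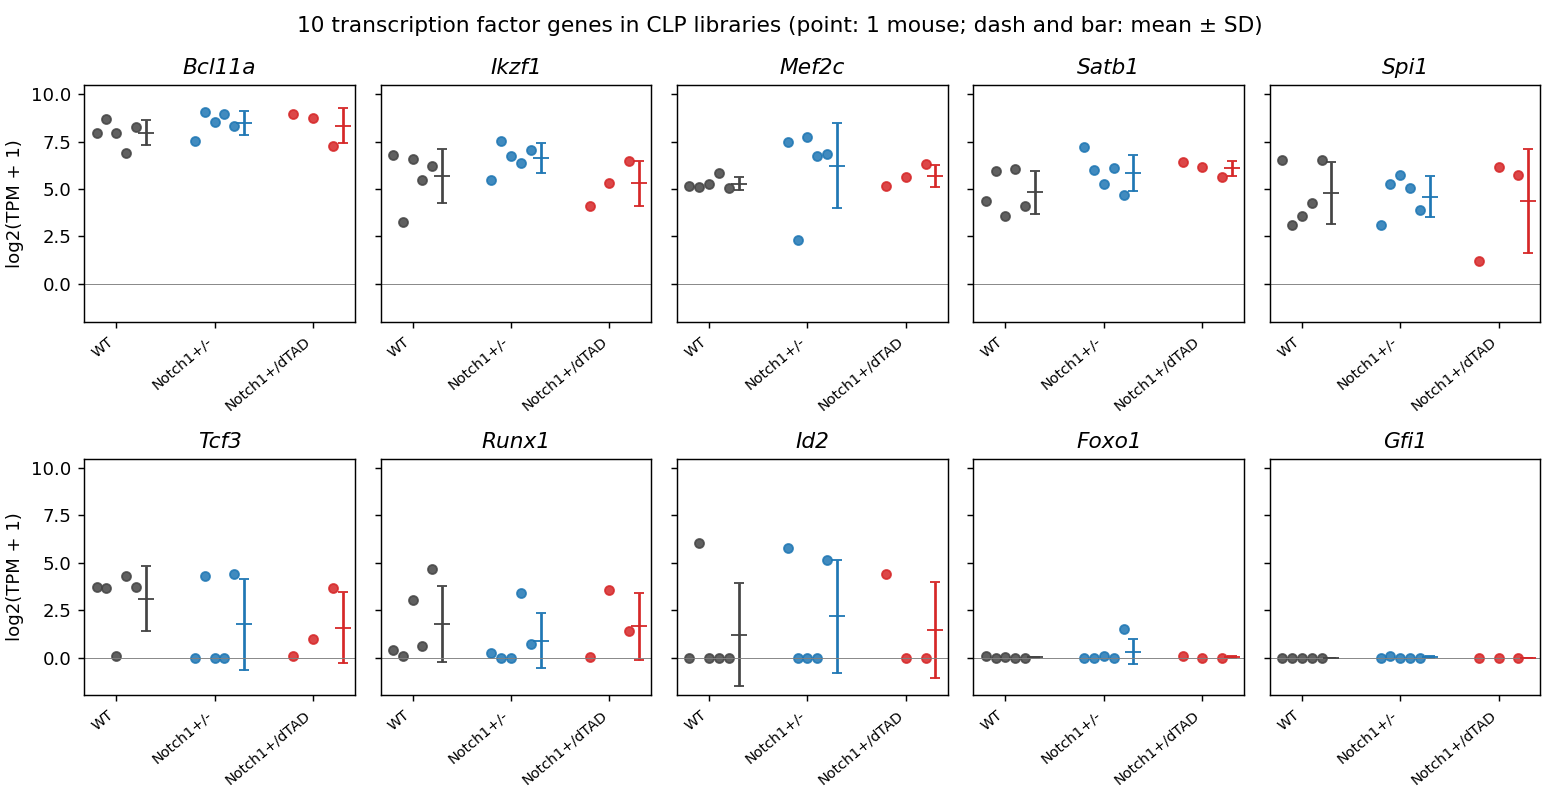
Levels of the 10 transcription factor genes as log2(TPM + 1) in WT, Notch1+/-, and Notch1+/dTAD CLPs, with 1 point per mouse and a dash and bar for the mean ± SD (n = 5, 5, and 3). Bcl11a lies highest in every genotype, Id2 is at 0 in 9 of 13 libraries, and the genotypes overlap in every panel.

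Bcl11a encodes a zinc finger repressor that early lymphoid and B cell development requires. It lies on chromosome 11 from 24078056 to 24174123 on the plus strand, and 4930538E20Rik and Gm12064 overlap it on the other strand. WT libraries 1, 2, 3, 10, and 11 had 252, 417, 248, 119.7, and 307.5 TPM of Bcl11a. Notch1+/- libraries 4, 5, 6, 12, and 13 had 182, 546, 369, 502, and 322 TPM. Notch1+/dTAD libraries 7, 9, and 14 had 502, 438, and 155 TPM. WT library 10 was the lowest of all, the highest was Notch1+/- library 5, and each genotype overlapped the others. Bcl11a was the highest of the 10 genes in 13 of 13 libraries and held 29.7% to 75.9% of their summed TPM. It was also the steadiest of the 5 genes found in every library, with a within-genotype SD of 0.71 on the log2 scale, which only 11.8% of the 1570 genes at 1 TPM or more in at least 10 libraries fell below (their median SD was 2.05).

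Ikzf1 encodes Ikaros, a zinc finger protein that works with the NuRD remodeling complex and without which B cells do not form. It lies on chromosome 11 from 11685003 to 11772926 on the plus strand. In WT libraries, in the same order, Ikzf1 was at 109, 8.66, 96.7, 43.6, and 72.7 TPM. Notch1+/- libraries had 43.1, 188, 105, 81.6, and 132 TPM, and Notch1+/dTAD libraries had 16.4, 38.3, and 88.5 TPM. WT library 2 was far below the other 4 WT libraries, and the 3 genotypes overlapped. The median was 72.7 TPM in WT, 105 TPM in Notch1+/-, and 38.3 TPM in Notch1+/dTAD CLPs, with a within-genotype SD of 1.16 on the log2 scale.

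Mef2c encodes a MADS box activator that supports lymphoid over myeloid fate in progenitors. It lies on chromosome 13 from 83504034 to 83667080 on the plus strand, and its start region is the second stretch printed above. WT libraries were tightly grouped at 34.3, 33.4, 37.7, 56.9, and 31.7 TPM of Mef2c. Notch1+/- libraries had 182, 4.03, 218, 105, and 114 TPM, and Notch1+/dTAD libraries had 34.8, 48.2, and 78.6 TPM. Of the Notch1+/- libraries, 4 were above the highest WT library and library 5 was below the lowest, so that the SD of log2 values was 0.33 in WT and 2.23 in Notch1+/- CLPs. Library 5 was also the library with the highest Bcl11a and Ikzf1.

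Satb1 encodes a chromatin organizer that multipotent progenitors need for lymphoid output and T cell development. It lies on chromosome 17 from 51736187 to 51833290 on the minus strand, where 5 annotated genes overlap it on the same strand, so that its reads and theirs may not be separable. Satb1 was at 19.8, 61.7, 11.2, 66.9, and 16.1 TPM in WT libraries. Values were 146, 62.4, 37.8, 69.4, and 24.4 TPM in Notch1+/- and 86.7, 71.7, and 49.1 TPM in Notch1+/dTAD libraries. WT libraries fell into a lower set of 3 and a higher set of 2, and the Notch1+/dTAD libraries lay around the higher set. Its within-genotype SD was 0.96 on the log2 scale.

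Spi1 encodes PU.1, an ETS factor whose dose weighs B lymphoid against myeloid fate, with high levels in myeloid cells. It lies on chromosome 2 from 91082390 to 91115756 on the plus strand. WT libraries had 92.5, 7.57, 11.1, 18.2, and 90.2 TPM of Spi1. Notch1+/- libraries had 7.50, 37.4, 52.4, 31.9, and 13.7 TPM, and Notch1+/dTAD libraries had 1.31, 71.4, and 52.8 TPM. Spi1 spanned a wide range in every genotype, with the lowest value of the series in Notch1+/dTAD library 7 and a within-genotype SD of 1.75 on the log2 scale. WT libraries 1 and 11, the highest in Spi1, also had the highest summed myeloid markers of the WT libraries, 2461 and 2269 TPM against 436 to 873 TPM in the other 3. Notch1+/dTAD library 7 had 2042 TPM of these markers with the lowest Spi1. Notch1+/dTAD library 9, at 71.4 TPM of Spi1, had 366 TPM of them, the lowest sum of the series. The part of myeloid cells in Spi1 levels was not tested.

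The E protein gene Tcf3 and the inhibitor gene Id2 were discontinuous. Tcf3 encodes E12 and E47, which bind E-boxes as dimers, and lies on chromosome 10 from 80409514 to 80433647 on the minus strand. WT libraries had 12.3, 12.0, 0.0517, 19.0, and 12.3 TPM of Tcf3. In Notch1+/- libraries 5 and 13 it was at 18.9 and 20.2 TPM and in the other 3 it was listed at 0. Notch1+/dTAD libraries had 0.0416, 0.968, and 11.7 TPM. Tcf3 was thus near 12 TPM or above in 4 of 5 WT, 2 of 5 Notch1+/-, and 1 of 3 Notch1+/dTAD libraries. Id2, on chromosome 12 from 25093799 to 25097140 on the minus strand, was at 65.8 TPM in WT library 2, at 53.1 and 34.0 TPM in Notch1+/- libraries 4 and 13, and at 20.1 TPM in Notch1+/dTAD library 7. It was listed at 0 in the other 9 libraries, and each genotype had libraries of both kinds. Tcf3 and Id2 were both at 1 TPM or more in WT library 2 and Notch1+/- library 13.

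Runx1 encodes the DNA-binding subunit of core binding factor, which blood stem cell formation and lymphoid differentiation require, and lies on chromosome 16 from 92601466 to 92826149 on the minus strand. In WT libraries Runx1 was at 0.311, 0.0434, 7.25, 0.539, and 24.3 TPM. Notch1+/- libraries had 0.185, 0, 0, 9.74, and 0.626 TPM, and Notch1+/dTAD libraries had 0.0255, 10.7, and 1.62 TPM. Each genotype had at least 1 library above 9 TPM and at least 1 below 0.2 TPM. Foxo1, which encodes a forkhead factor that activates Il7r and Rag genes, lies on chromosome 3 from 52268336 to 52353221 and shares its strand with Gm38034. It was above 0 in 5 libraries, with 1.81 TPM in Notch1+/- library 13 and at most 0.0682 TPM in the others. Gfi1, which encodes a repressor that restrains Spi1 and Id2 in lymphoid progenitors, lies on chromosome 5 from 107716657 to 107726036. It was listed at 0 in 12 libraries and at 0.0617 TPM in Notch1+/- library 5.

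Ordered by median TPM, WT CLPs ran Bcl11a (252), Ikzf1 (72.7), Mef2c (34.3), Satb1 (19.8), Spi1 (18.2), Tcf3 (12.3), and Runx1 (0.539). Among these WT neighbors, only Bcl11a and Ikzf1 had ranges that did not overlap. Notch1+/- CLPs ran Bcl11a (369), Mef2c (114), Ikzf1 (105), Satb1 (62.4), and Spi1 (31.9), and all of these neighbors overlapped in range. Notch1+/dTAD CLPs ran Bcl11a (438), Satb1 (71.7), Spi1 (52.8), Mef2c (48.2), and Ikzf1 (38.3), where only Bcl11a stood apart from its neighbor within those 5. These orders are on a scale per length, and libraries made from 3′ ends do not gain reads with length, so they depend on that division.

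In the comparison of Notch1+/dTAD with WT CLPs, no change passed the test for any of the 10 genes, and the 2 genotypes overlapped in all 10. Satb1 had the largest difference upward and Tcf3 the largest downward, and the intervals of both included 0. By limma on log2(TPM + 1), with genes at 1 TPM or more in at least 3 of the 8 libraries, 7 of the 10 entered the test and none of them, 0 of 7, reached an adjusted p under 0.05, where 0% of 4737 genes did. At an unadjusted p under 0.05 the count was also 0 of 7, against 5.00% of all genes tested, and genotypes without overlap numbered 0 of 7, against 3.12%. Satb1 was 1.27 higher in Notch1+/dTAD CLPs on the log2 scale (SE 1.35, 95% interval -1.62 to 4.16, limma adjusted p = 0.987). For Tcf3 the log2 difference was -1.54 (SE 1.78, interval -5.37 to 2.28, limma adjusted p = 0.995), and it was -0.79 without Notch1+/dTAD library 7 and -2.59 without library 14. Without library 7, the one low in Spi1, the difference of Spi1 was 1.16 and that of Satb1 1.09, so the gene with the largest difference upward depended on that library. The log2 differences of Mef2c and Bcl11a were 0.42 and 0.38, and those of Runx1, Ikzf1, and Spi1 were -0.10, -0.37, and -0.42 (limma adjusted p = 0.996 for each). Bcl11a had the narrowest interval, -1.28 to 2.04, and Spi1 one from -4.14 to 3.29. The median log2 difference of the 7 genes was -0.10, beside 0.47 over all genes tested. Quantile normalization moved that general shift to -0.02 and the genes at an unadjusted p under 0.05 from 196 higher and 41 lower to 136 higher and 69 lower, whereas median-ratio scaling left it at 0.42 with 192 higher and 43 lower. Under quantile normalization the median of the 7 genes was -0.90, with Satb1 at 0.89, Bcl11a at 0.43, Mef2c at 0.07, Ikzf1 at -0.90, Spi1 at -0.98, Runx1 at -1.61, and Tcf3 at -2.60. This normalization was run over all listed genes, most of them at 0 in a given library, and the number at 0 differed between libraries. Under it, differences of genes near 0 in some libraries, such as Runx1 and Tcf3, can depend on how many genes were found.

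Between Notch1+/- and WT CLPs, 0 of the 6 genes tested had an adjusted p under 0.05 (0% of 3178 genes), and 0 had an unadjusted p under 0.05 (5.35% of all genes). No genotypes were without overlap in the 6, beside 0.787% of all genes. Satb1, Ikzf1, and Mef2c had log2 differences of 1.03, 0.97, and 0.96 and Bcl11a one of 0.52, whereas Spi1 was at -0.20 and Tcf3 at -1.37 (limma adjusted p = 0.993 for each). The interval for Mef2c was -1.62 to 3.53. Without Notch1+/- library 5 its difference was 1.93 (limma adjusted p = 0.953), and without WT library 2, the library low in Ikzf1, the difference of Ikzf1 was 0.37. The median of the 6 differences was 0.74 and that of all genes 0.06. Summed over the 10 genes, Notch1+/- libraries had 614 to 857 TPM and WT libraries 325 to 606 TPM, a description without a test, and Bcl11a alone made up 29.7% to 63.7% of the Notch1+/- sums. Notch1+/dTAD libraries had 438 to 679 TPM, which overlapped both. How often sums of other genes separate these genotypes was not examined.

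The 2 mutants were compared in 1 model of all 13 libraries, in which 8 of the 10 genes were at 1 TPM or more in at least 3 libraries. Again 0 passed at an adjusted p under 0.05 (0% of 6281 genes), 0 at an unadjusted p under 0.05 (5.33%), and 0 were without overlap (3.06%). Ikzf1 had the largest difference, -1.33 in Notch1+/dTAD against Notch1+/- CLPs (SE 1.30, interval -4.04 to 1.37, limma adjusted p = 0.997). Runx1 was at 0.78 and Satb1 at 0.24 on the log2 scale, and Bcl11a, Tcf3, Spi1, Mef2c, and Id2 were at -0.14, -0.18, -0.22, -0.54, and -0.71 (limma adjusted p = 0.997 to 0.998). A moderated F test over the 3 genotypes called 0 of the 8 genes and 0% of all genes at an adjusted p under 0.05, and 0 of 8 against 5.00% of all genes at an unadjusted p under 0.05. Because both mutants share the WT libraries, their differences from WT are set side by side without a test: Satb1 was at 1.27 and 1.03, Bcl11a at 0.38 and 0.52, Mef2c at 0.42 and 0.96, Ikzf1 at -0.37 and 0.97, Spi1 at -0.42 and -0.20, and Tcf3 at -1.54 and -1.37 for Notch1+/dTAD and Notch1+/-, respectively. In the plot of these differences, every interval crosses 0.

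**Figure D2:**
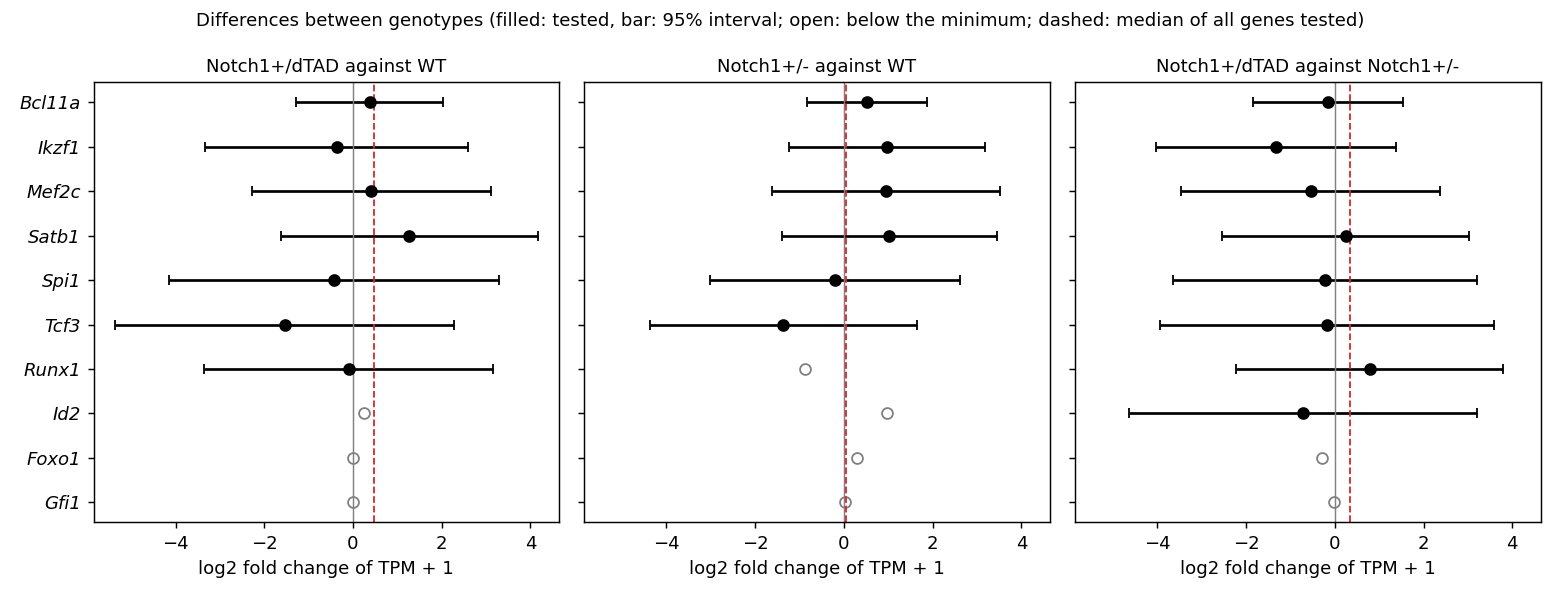
Differences in mean log2(TPM + 1) of the 10 genes for Notch1+/dTAD against WT, Notch1+/- against WT, and Notch1+/dTAD against Notch1+/-, with 95% intervals from limma and open points for genes below the minimum for the test. Every interval crosses 0, and the dashed line marks the median of all genes tested (0.47, 0.06, and 0.35).

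Library numbers 1 to 9 and 10 to 14 each held all 3 genotypes, with a single Notch1+/dTAD library, 14, in the second range. In numbers 1 to 9, Notch1+/dTAD libraries had 438 and 502 TPM of Bcl11a and WT libraries 248 to 417 TPM, whereas in 10 to 14 the Notch1+/dTAD library had 155 TPM, between the WT libraries at 119.7 and 307.5 TPM. Ikzf1 was at 16.4 and 38.3 TPM in Notch1+/dTAD libraries of the first range and at 88.5 TPM in the second, above both WT libraries there. With a term for the number range, the Notch1+/dTAD difference from WT was 1.27 for Satb1, 0.31 for Bcl11a, -0.31 for Ikzf1, and -1.40 for Tcf3, and 0 genes passed.

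Relatives and partners of the 10 genes divided into families with a constant member and families without one. Of 21 relatives, 10 were listed at 0 in every library, among them Ikzf3, Bcl11b, Id1, Id3, and Gfi1b. The other 11 were above 0 in at least 1 library, beside 10149 of all 24972 genes. Tcf4, the E protein E2-2, was at 14.0 to 169 TPM and at 1 TPM or more in 13 of 13 libraries, where Tcf3 was so in 7 and the third E protein gene, Tcf12, in 8. Runx2 was at 1.19 to 165 TPM in 13 of 13 and Runx3 at 1 TPM or more in 12, where Runx1 was so in 5, and their common partner Cbfb reached 1 TPM in 12. Foxo4 did so in 6 libraries and Spib, the closest relative of Spi1, in 5. The heatmap of families shows these rows side by side, with rows at 1 TPM or more in every column for Bcl11a, Ikzf1, Mef2c, Satb1, Spi1, Tcf4, and Runx2.

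**Figure D3:**
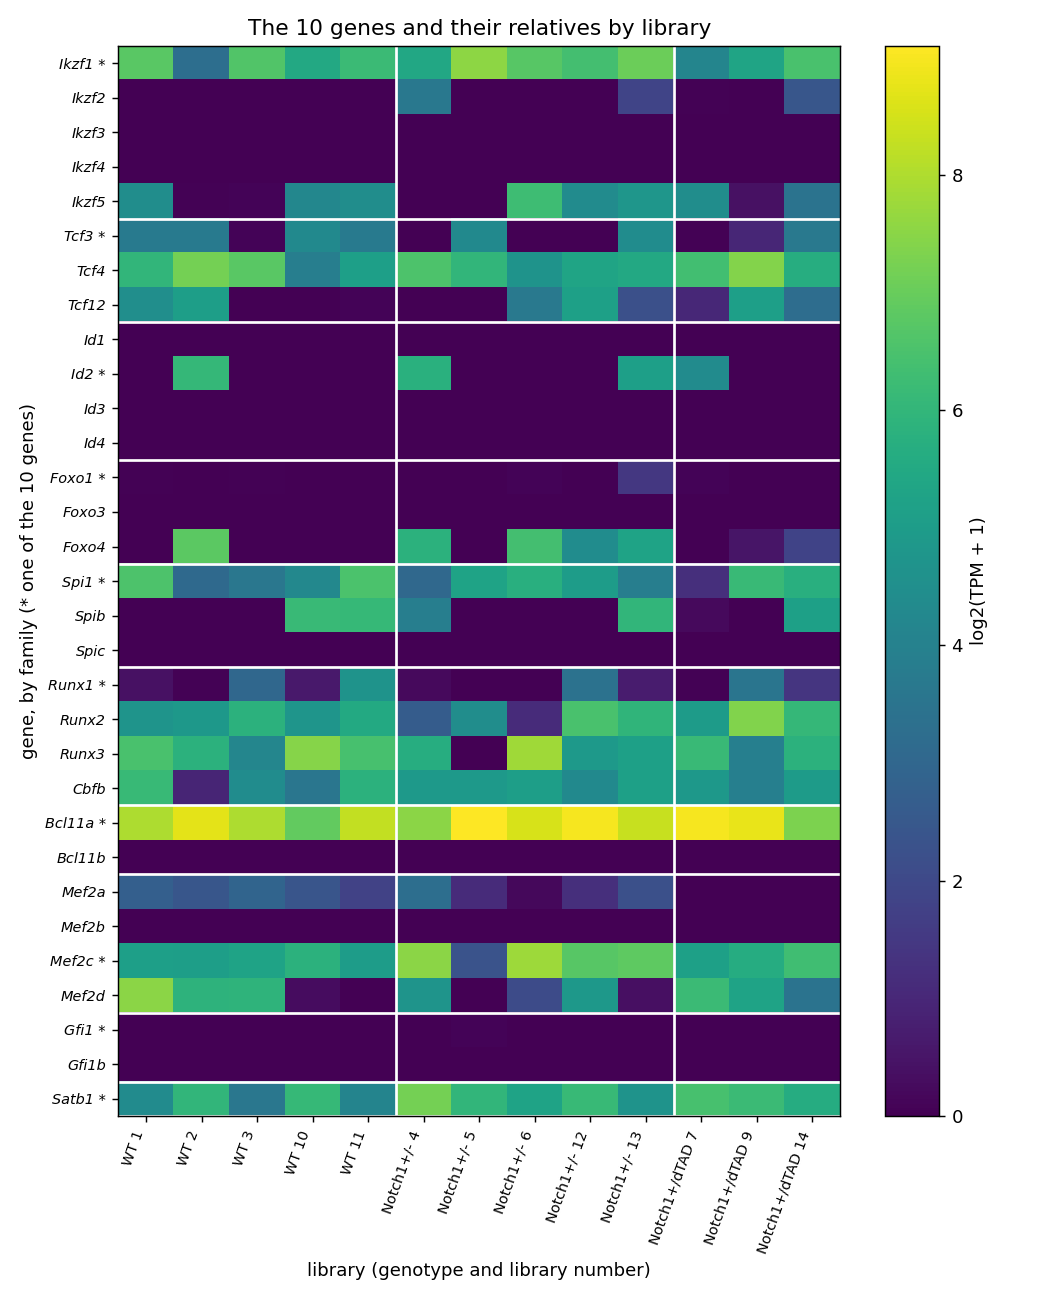
Heatmap of log2(TPM + 1) for the 10 genes (asterisks) and 21 relatives and partners by family, with 1 column per library ordered by genotype. Rows of Tcf4 and Runx2 are filled in all 13 libraries, whereas 10 relatives are at 0 throughout.

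None of the relatives passed the test in any comparison. Of 9 tested in Notch1+/dTAD against WT, 0 rose and 0 fell, 6 were above 0 and 3 below on the log2 scale, and their median was 0.42 beside 0.47 for all genes. Mef2a, a paralog of Mef2c, was at 2.49 to 6.72 TPM in WT and at 0 to 0.0128 TPM in Notch1+/dTAD libraries, with 0.149 to 8.73 TPM in Notch1+/- libraries. Its log2 difference was -2.46 (SE 1.11, unadjusted p = 0.0440, limma adjusted p = 0.952), and it met the minimum for the test through the WT libraries. Runx2 was next by p-value, at 1.01 (limma adjusted p = 0.996). In Notch1+/- against WT, 0 of 9 passed, with Foxo4 at 3.02 (limma adjusted p = 0.969) and Runx3 at -1.37 (limma adjusted p = 0.993), and the median was -0.20 beside 0.06. Between the mutants 0 of 11 passed, with a median of -0.17 beside 0.35.

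Among 28 other transcription factor genes of blood progenitors, 22 were above 0 in at least 1 library, and 0 of 15, 0 of 14, and 0 of 18 tested passed in the 3 comparisons. Irf8, a factor of dendritic and B cell development, was the most abundant at 300.5 to 1389 TPM, above Bcl11a in its median (743 against 322 TPM over 13 libraries). The B lineage gene Ebf1 was above 0 in 12 and Pax5 in 7 libraries, Hoxa9 in 11, and the T lineage genes Tcf7 and Lef1 and the erythroid genes Gata1 and Klf1 in 0. From the same list, the T lineage genes Gata3 and Tox were above 0 in 2 and 1 libraries (up to 37.9 and 22.0 TPM). Tal1 was above 0 in 5 libraries (up to 29.0 TPM). In Notch1+/dTAD against WT the smallest p-values in the list were those of Erg, an ETS factor of stem cells, at 3.33 (limma adjusted p = 0.952), and Irf8 at 0.68 (limma adjusted p = 0.972). In Notch1+/- against WT they were those of Meis1, a homeobox partner of Hoxa9, at 3.63 (0 to 38.3 TPM in WT and 9.63 to 101 TPM in Notch1+/- libraries, unadjusted p = 0.0296, limma adjusted p = 0.864), and Fli1 at 2.74 (limma adjusted p = 0.967). Meis1 met the minimum for the test through the Notch1+/- libraries, as its WT median was 0 TPM. The list's medians in the 3 comparisons were 0.63, 0.59, and -0.07, beside 0.47, 0.06, and 0.35 for all genes.

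Genes that these factors are known to control were all detected somewhere, 19 of 19, and 0 of 13, 0 of 8, and 0 of 14 tested passed in the 3 comparisons. Dntt, the terminal transferase gene that E2A and Ikaros bind, was at 2095 to 9616 TPM, Il7r at 0 to 184 TPM, and Flt3 at 5.21 to 282 TPM. By p-value the first were Igll1, a surrogate light chain gene, at 3.91 and Dntt at -0.42 in Notch1+/dTAD against WT (limma adjusted p = 0.952 for both), and Notch1 itself at 1.71 and the myeloid granule gene Mpo at -1.10 in Notch1+/- against WT (limma adjusted p = 0.993 for both). The medians of the list were 0.46, -0.43, and 0.80, beside 0.47, 0.06, and 0.35 for all genes.

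The chromatin partners were the NuRD subunits, which work with Ikaros and Bcl11a, the Kdm1a and Rcor1 pair, which works with Gfi1, and the coactivator genes Ep300, Crebbp, and Smarca4. Chd4, the NuRD remodeler, was at 101 to 340.1 TPM, and Chd4, Mta1, Rbbp4, and Rbbp7 were at 1 TPM or more in all 13 libraries. None of the 15 passed in any comparison. In Notch1+/dTAD against WT, Rcor1 was at 0 to 90.4 TPM in WT and 42.5 to 142 TPM in Notch1+/dTAD libraries (log2 difference 4.43, unadjusted p = 0.0441, limma adjusted p = 0.952), followed by Hdac1 at 3.46 (limma adjusted p = 0.952). Rcor1 met the minimum for the test through the Notch1+/dTAD libraries, as its WT median was 0 TPM. Ep300 was at 1.89 (limma adjusted p = 0.921) and Gatad2a at -2.22 (limma adjusted p = 0.978) in Notch1+/- against WT. Ep300 met the minimum for the test through the Notch1+/- libraries, where it was at 2.68 to 10.1 TPM. Between the mutants, Rcor1 at 4.57 and Smarca4 at -3.44, named after their values were seen, had unadjusted p-values of 0.0249 and 0.0338 (limma adjusted p = 0.932 for both). The medians of the list were 0.22, 0.30, and 0.20.

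The 7 members above 0 in at least 10 libraries did not move as a set. Pearson's r of log2(TPM + 1) over the 13 libraries, which differ in genotype and in the number of genes found, ranged from -0.47 for Ikzf1 and Satb1 (Spearman's rho -0.56) to 0.58 for Ikzf1 and Spi1 (rho 0.40) in 21 pairs, with a median of -0.06, given as a description. Among 2150 genes above 0 in at least 10 libraries, the patterns most like Bcl11a were those of Atf7 (r = 0.91) and Agtrap (r = 0.82). Those most like Ikzf1 were Nckap1l (r = 0.82) and Chmp1a (r = 0.81), those most like Mef2c were Ddx46 (r = 0.84) and Lsp1 (r = 0.83), and those most like Satb1 were Erp29 and Rpl7a (r = 0.78 for both). For Spi1 they were Rps18 (r = 0.83) and Zfp326 (r = 0.79), for Tcf3 Anks1 (r = 0.89) and Anapc16 (r = 0.84), and for Runx1 Mrps14 (r = 0.90) and Parl (r = 0.82). As the highest of 2150 correlations over only 13 libraries, such r are high by selection and are given as a description. Spearman's rho for these genes ran from 0.50 for Ikzf1 and Chmp1a to 0.89 for Bcl11a and Atf7. With the count of genes that reached 1 TPM in a library, each of the 7 had an r between 0.0079 and 0.19. Spearman's rho with that count ran from -0.15 for Ikzf1 to 0.42 for Runx1, whose r was 0.15.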

How the data were processed

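CLP RNA was made into strand-specific 3′ libraries in a single round per the labels. The authors used FASTQ Toolkit for trimming and STAR for alignment to mm10. With DESeq2 they also reported genes that differed between WT and Notch1+/dTAD CLPs, an analysis not repeated here. They deposited TPM values in 2 tables, each a mutant beside WT, with identical WT columns. The tool and annotation behind the TPM are not given in the sources used here. Without read counts, no count model was run here and precision was judged from the spread between mice.

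Values were compared as log2(TPM + 1) in R 4.3.3 with limma 3.58.1 (eBayes with trend, 2-sided, Benjamini-Hochberg over all genes tested) on genes with 1 TPM or more in at least 3 of 8, 5 of 10, or 3 of 13 libraries, and an adjusted p under 0.05 was the threshold. The test was checked on simulated data in which the added changes were larger than any difference of the 10 genes. That check therefore does not measure how well differences of their size are found. Coordinates are from GENCODE M21 (GRCm38). The 10 genes and the gene lists were chosen with earlier results of these data known, and 2 genes of those lists are not reported here. Named from each list are the 2 tested genes with the smallest unadjusted p in each comparison with WT, and the 2 genes with the highest r for each member. Other genes named from the lists for their levels were chosen after their values were seen. Alternatives were pseudocounts of 0.1 and 10, other filters, other scalings, other eBayes settings, a term for library number range, 1 model of 13 libraries, and leaving out each library.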

Additional observations from a re-analysis of the deposited data

Results flagged for a closer look

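In 6 of the 19 sets of 5 libraries with any value above 0 that were examined, 1 library lay apart from the other 4 by Dixon's criterion on log2(TPM + 1). Chance flags about 1 in 20 sets of normally distributed values, but sets that hold mostly zeros meet the criterion by construction once 1 value is above 0, so the number of such sets is not read against chance. Tcf3 was at 0.0517 TPM in WT library 3 and Mef2c at 4.03 TPM in Notch1+/- library 5, both below the rest of their genotype. Id2 at 65.8 TPM in WT library 2, Runx1 at 9.74 TPM in Notch1+/- library 12, Foxo1 at 1.81 TPM in Notch1+/- library 13, and Gfi1 at 0.0617 TPM in Notch1+/- library 5 were above the rest. The 4 high values belong to genes listed at 0 or under 1 TPM in the remaining libraries of the genotype, and no cause was tested. Notch1+/- library 13 also had the most genes at 1 TPM or more, 4736, and the lowest summed CLP markers, 2521 TPM.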

How the results depend on the processing

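No paired analysis was run, as the sources used here give no pairing of mice between genotypes. At an unadjusted p under 0.05 the numbers of genes in Notch1+/dTAD against WT, Notch1+/- against WT, Notch1+/dTAD against Notch1+/-, and the F test were 237, 170, 335, and 314, and with eBayes without trend 15, 2, 3, and 4 passed at an adjusted p under 0.05. Leaving out each library gave 0 to 1 genes in the F test, the 1 without WT library 10, and 0 in the other 3 comparisons. Other filters, other eBayes settings, and 1 model of 13 libraries can change p-values but not a member's difference. The library number term likewise left the differences of Notch1+/- from WT as they were. Moves beyond the spread between mice were scored only for genes below the minimum for the test. Of 290 member values under other settings, these fixed ones included, 4 had the opposite sign and 6, all of Foxo1 or Gfi1, moved by more than that spread, and 0 passed the threshold (lowest limma adjusted p 0.709). The 4 were Tcf3 between the mutants, at 0.55 with a pseudocount of 0.1, Spi1 between the mutants, at 0.15 with a pseudocount of 10, and, below the minimum for the test in Notch1+/dTAD against WT, Id2 at -0.054 with a pseudocount of 10 and Foxo1 at -0.22 with quantile normalization. The cause was not tested. Of 310 values without 1 library, 32 had the opposite sign and 0 passed. The 310 include values between the mutants without a WT library, where the difference could not change. In Notch1+/dTAD against WT, Ikzf1 ranged from -0.97 to 0.22, Spi1 from -1.32 to 1.16, Runx1 from -1.04 to 0.71, and, not tested, Id2 from -1.21 to 1.47 and Foxo1 from -0.019 to 0.026. In Notch1+/- against WT, Spi1 ranged from -0.63 to 0.23. Between the mutants, Tcf3 ranged from -1.23 to 0.58, Spi1 from -1.12 to 1.36, Runx1 from -0.16 to 1.60, Bcl11a from -0.46 to 0.38, Id2 from -2.18 to 0.18, Satb1 from -0.055 to 0.58, and, not tested, Foxo1 from -0.37 to 0.0060. Depth is unknown, so a gene listed at 0 may have been missed, and with 3 Notch1+/dTAD mice intervals span several log2 units for most members.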
